A study of Homo sapiens with 3 samples.

Results

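The iron genes described here encode the proteins that bring iron into a cell, store it, release it and sense its amount. They were chosen by name, and no measured value enters the rule: 10 symbols (TFRC, STEAP3, SLC11A2, SLC11A1, FTH1, FTL, NCOA4, SLC40A1, ACO1 and IREB2) looked up among the 57773 Ensembl gene rows of a read count table. The choice was made with earlier results of these data known. Of the 10, 9 had a row under their current Ensembl ID and all 9 passed the filter on low counts. NCOA4, the receptor that takes ferritin to the lysosome, had no row under that ID and its level was not analysed here.

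The counts came from polyA RNA of NB4, a human acute promyelocytic leukaemia cell line, expressing short hairpin RNAs (shRNAs). In 1 library the cells carried hairpin 2 against ARID1B, in 1 library hairpin 3 against ARID1B, and in 1 library a control shRNA with no target. The medium of all 3 was RPMI with fetal bovine serum. ARID1B encodes a subunit of the BAF chromatin remodelling complex. Each hairpin is represented by 1 library, and nothing in the labels ties the libraries to separate cultures. The p-values therefore measure the spread between these samples alone, and that spread may be technical. For each gene the spread was estimated mostly from all genes together, not from its own counts. The libraries held 59997475, 62954803 and 61640692 counts (hairpin 2, hairpin 3, control). ARID1B stood at 36.7 and 35.8 CPM (counts scaled to the library size with TMM factors) under hairpins 2 and 3, against 84.8 CPM in the control. The promyelocyte gene MPO had 13903 and 11897 CPM under hairpins 2 and 3 and 10994 CPM in the control, while ELANE, another gene of that stage, had 4, 1 and 10 counts. Of the 6 promyelocyte markers 1 rose and 1 fell, beside 8.7% of all genes called in either direction (edgeR adjusted p under 0.05). PRTN3 had 248 and 219 CPM under hairpins 2 and 3, against 54.2 CPM in the control (log2 fold change 2.11 ± 0.151, edgeR adjusted p = 7.5e-07). CTSG had 27.8 and 35.0 CPM, against 110.1 CPM (-1.81 ± 0.141, edgeR adjusted p = 1.2e-06).

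Cells take up transferrin-bound iron through the transferrin receptor, reduce it in the endosome with STEAP3 and pass it into the cytosol through a divalent metal transporter. Surplus iron is held in ferritin, a shell of heavy (FTH1) and light (FTL) chains, or leaves through ferroportin (SLC40A1). The iron regulatory proteins ACO1 and IREB2 bind iron-responsive elements, short stem-loops in mRNAs, when iron is scarce: at a site in the 5′ untranslated region (UTR) they block translation, and at sites in the 3′ UTR of the transferrin receptor mRNA they protect the mRNA from decay. Myeloid cells also use these proteins to withhold iron from microbes.

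The stem-loops are shown because they tie 4 of these mRNAs to the regulators in the same set. A bulged C, 5 bases, the loop CAGTGN and 5 bases that pair with the first 5 (G-T pairs allowed) were searched on the sense strand of the coding transcripts of all 10 genes in GENCODE release 29 (letters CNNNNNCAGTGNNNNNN). The pattern was found in the UTRs of TFRC, FTH1, FTL and SLC40A1 and in none of the other 6. Each stem-loop is given 5′ to 3′ as 29 bases of the transcript in DNA letters, with the loop in capitals.
FTH1 5′ UTR, chr11:61967574-61967602, minus strand, GRCh38: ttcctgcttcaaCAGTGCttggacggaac
FTL 5′ UTR, chr19:48965335-48965363, plus strand, GRCh38: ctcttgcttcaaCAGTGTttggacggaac
SLC40A1 5′ UTR, chr2:189580661-189580689, minus strand, GRCh38: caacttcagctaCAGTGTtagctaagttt
TFRC 3′ UTR, chr3:196050979-196051007, minus strand, GRCh38: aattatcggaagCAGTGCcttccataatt
TFRC 3′ UTR, chr3:196050575-196050603, minus strand, GRCh38: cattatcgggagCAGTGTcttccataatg
TFRC 3′ UTR, chr3:196050510-196050538, minus strand, GRCh38: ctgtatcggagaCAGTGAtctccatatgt
TFRC 3′ UTR, chr3:196050463-196050491, minus strand, GRCh38: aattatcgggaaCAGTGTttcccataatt

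The FTH1 and FTL elements were identical at 26 of 29 positions, while the SLC40A1 element shared 13 with FTH1 and 14 with FTL. The 4 TFRC elements shared 18 to 25 positions with each other, 9 to 13 with the ferritin elements and 13 to 16 with the SLC40A1 element. All these numbers include the letters fixed by the search pattern, which match in every pair. With 1 coding transcript taken per gene, the pattern occurred in the 5′ UTR of 0.119% of 17708 genes and in the 3′ UTR of 0.555% of 18746 genes. The site lay in 7 of 8 annotated coding transcripts of FTH1, in 3 of 4 of TFRC and in 1 of 5 of SLC40A1. Counts were per gene, so transcripts with and without the element were not told apart. A match is a match of letters only. Elements of another form are missed by this pattern, so TFRC and the other genes may hold more than the matches listed. Likewise, no match in SLC11A2 says only that this pattern is not in its UTRs.

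With ARID1B silenced, the transferrin receptor TFRC, the endosomal reductase STEAP3 and the iron exporter SLC40A1 rose, each between 1.39-fold and 1.59-fold. None of the 9 measured genes was called lower, though FTL and ACO1 lay below the control under both ARID1B hairpins. The call was an adjusted p under 0.05 in edgeR's quasi-likelihood test with Benjamini-Hochberg adjustment over 20382 genes. In that test 8.7% of all genes were called, 5.49% higher and 3.21% lower, beside 3 of 9 iron genes higher and 0 lower (5 higher and 0 lower at an unadjusted p under 0.05). The median log2 fold change was 0.33 over the 9 genes and -0.01 over all genes tested. Because the genes were chosen with earlier results of these data known, this contrast is not that of a blind choice. The 3 calls rest on a comparison of 2 libraries with 1, in which the lone control was assumed to vary like the hairpin libraries. The number called went from 0 to 4 over the alternative settings. It was 0 when genes with a mean CPM under 1 were left out, where the adjusted p was 0.0749 for TFRC, 0.0518 for STEAP3 and 0.0534 for SLC40A1, and 0 when no gene was left out for low counts (adjusted p = 0.47 for each).

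**Figure D1:**
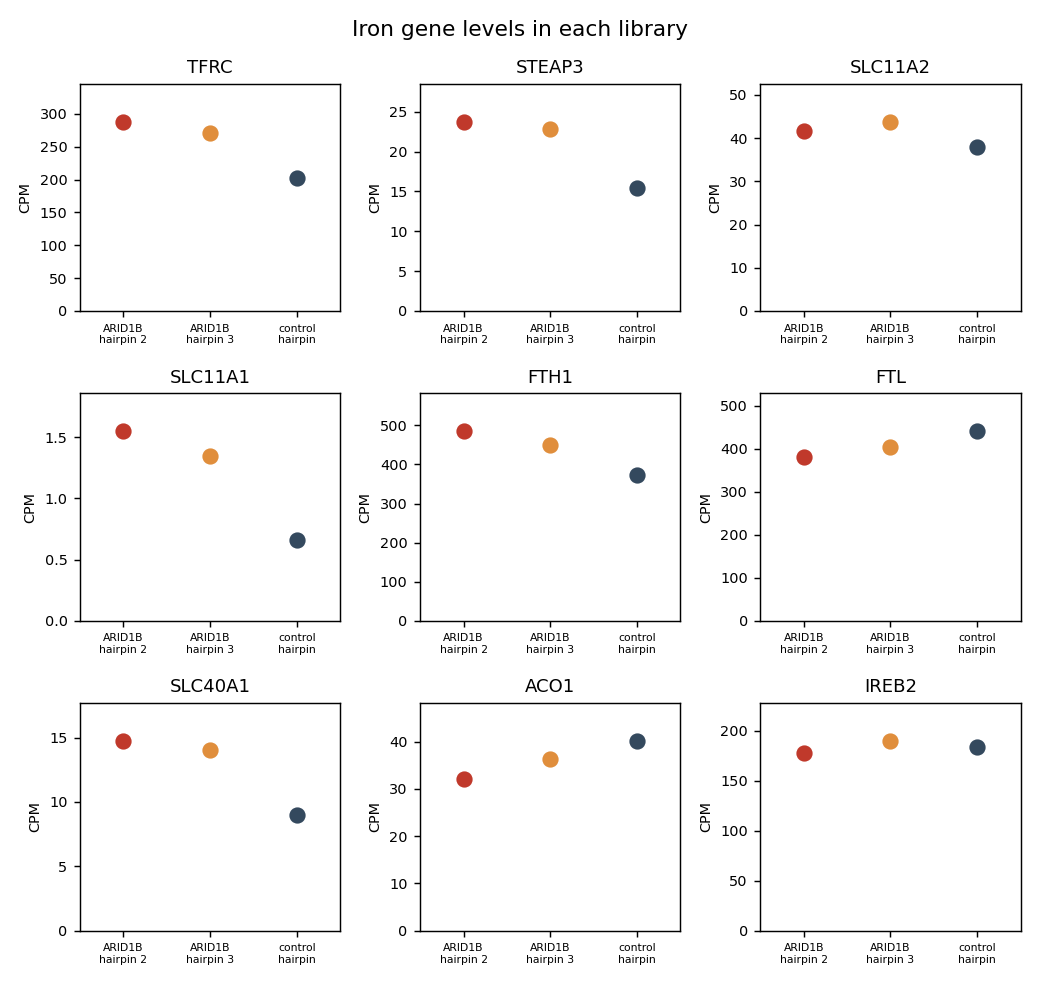
Level of the 9 measured iron genes in each library, in CPM on linear axes from 0, with 1 point per library (ARID1B hairpin 2, ARID1B hairpin 3, control hairpin). TFRC, STEAP3, SLC11A2, SLC11A1, FTH1 and SLC40A1 stand higher under both ARID1B hairpins, SLC11A2 only slightly. FTL and ACO1 stand lower, and for IREB2 the control lies between the hairpins.

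Among the uptake genes, TFRC, the receptor for transferrin, had 288 CPM under hairpin 2 and 271 CPM under hairpin 3, against 202 CPM in the control. Both hairpin libraries lay above the control, at 1.43 times its level (95% counting interval 1.40 to 1.46) and 1.35 times (1.31 to 1.38). The mean under ARID1B shRNA was 279.9 ± 11.9 CPM (SD, n = 2), a log2 fold change of 0.47 ± 0.138 (SE; edgeR adjusted p = 0.0434). The call was lost with upper quartile scaling (edgeR adjusted p = 0.0674) and with robust empirical Bayes (0.0529), and across all settings tried the p lay between 0.0312 and 0.47. Counting intervals are exact and cover counting error only, since the reads carry no molecular identifiers.

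STEAP3, which reduces ferric iron in the endosome so that it can cross the membrane, had 23.8 and 22.8 CPM under hairpins 2 and 3, against 15.4 CPM in the control. The levels under the ARID1B hairpins differed from each other by less than their counting error, and both lay above the control. The log2 fold change was 0.60 ± 0.15 (SE; edgeR adjusted p = 0.0192, under other settings 0.0116 to 0.47). In the annotation 11% of the STEAP3 exon length is shared with STEAP3-AS1 on the other strand, which had 243 and 247 counts under hairpins 2 and 3 and 141 in the control (log2 fold change 0.82 ± 0.248, edgeR adjusted p = 0.0525). Whether strand was used in counting is not given in the sources used here, so reads from the shared part cannot be told apart. With the counts of both genes summed, the log2 fold change was 0.63 (edgeR adjusted p = 0.0118).

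SLC11A2, the divalent metal transporter DMT1 that moves iron from the endosome to the cytosol, had 41.6 and 43.8 CPM under hairpins 2 and 3, against 38.0 CPM in the control. Both hairpin libraries were slightly above the control, with a log2 fold change of 0.17 ± 0.134 (SE), which did not pass (edgeR adjusted p = 0.54). Its paralogue SLC11A1, also called NRAMP1, which pumps metal ions out of the phagosome of macrophages and neutrophils, was the least abundant of the 9 genes, with 93 and 84 counts under hairpins 2 and 3 and 41 counts in the control. Those counts correspond to 1.55 and 1.35 CPM, against 0.66 CPM. The log2 fold change of SLC11A1 was the largest of the 9 genes in the fit, 1.13 ± 0.368 (SE), but it did not pass (edgeR adjusted p = 0.0718). The ratio to the control was 2.34 under hairpin 2 (95% counting interval 1.61 to 3.47) and 2.04 under hairpin 3 (1.39 to 3.04). The call depended on the spread estimate: with the legacy quasi-likelihood fit SLC11A1 passed (edgeR adjusted p = 0.0471, over the alternatives from 0.0471 to 0.47).

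The ferritin chains, which share a near-identical stem-loop at the start of their mRNAs, lay on opposite sides of the control. FTH1, the heavy chain with the ferroxidase activity, had 485 and 451 CPM under hairpins 2 and 3, against 373 CPM in the control (log2 fold change 0.33 ± 0.146, edgeR adjusted p = 0.21). FTL, the light chain that helps the iron core to form, had 382 and 403 CPM under hairpins 2 and 3, against 441 CPM in the control (-0.17 ± 0.141, edgeR adjusted p = 0.572). Neither change passed the threshold, in the main fit or in any of the 8 alternatives run for all genes.

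The ratio of heavy to light chain counts within a library does not depend on how libraries are scaled. It was 1.27 under hairpin 2 (95% counting interval 1.25 to 1.29) and 1.12 under hairpin 3 (1.10 to 1.14), against 0.846 in the control (0.831 to 0.861). The intervals of the 3 libraries did not overlap, and the hairpin libraries also differed from each other. With 1 control library the spread of this ratio between control cultures is not known, and no test was made.

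The FTH1 counts carry a further limit. Of its annotated exon length, 62.4% is shared with BEST1 on the other strand, a gene for a chloride channel of the retinal pigment epithelium. The BEST1 row held 24106 and 24350 counts under hairpins 2 and 3 and 19250 in the control, close to the number in the FTH1 row itself (29142, 28108 and 23143 counts in the same order). FTH1 over BEST1 counts was 1.21 and 1.15 under hairpins 2 and 3 and 1.20 in the control, so the rows moved nearly in parallel. How reads were split between them was not tested, and reads from the shared part cannot be told apart. Summing the rows gave a log2 fold change of 0.34 (edgeR adjusted p = 0.242). Few counts lay in the rows of processed pseudogenes: 25 rows named as FTH1 pseudogenes held 0.436% to 0.466% as many counts as FTH1, and 16 FTL pseudogene rows 0.139% to 0.207% as many as FTL. Adding these counts left both log2 fold changes at 0.33 and -0.17. Any reads left uncounted because they matched several places would appear in none of these rows, so their number is not known.

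**Figure D2:**
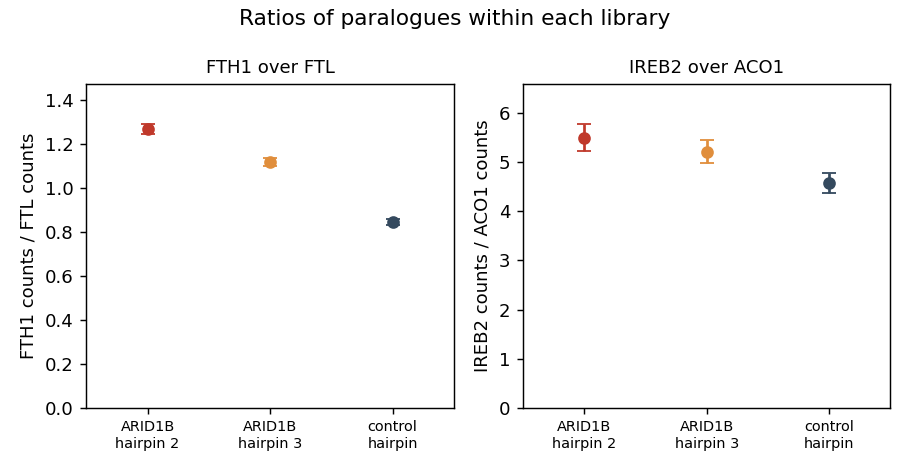
Ratio of FTH1 to FTL counts (left) and of IREB2 to ACO1 counts (right) in each library, on linear axes from 0, with exact 95% counting intervals. FTH1 over FTL is above 1 under both ARID1B hairpins and 0.846 in the control, and IREB2 over ACO1 is also lowest in the control, at 4.58.

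SLC40A1, ferroportin, the known exporter of cellular iron, had 14.7 and 14.1 CPM under hairpins 2 and 3, against 9.02 CPM in the control. Both hairpin libraries lay above the control by similar amounts, 1.63 times (95% counting interval 1.47 to 1.82) and 1.56 times (1.40 to 1.74). The log2 fold change was 0.67 ± 0.168 (SE; edgeR adjusted p = 0.0189, over the alternatives from 0.0108 to 0.47), and the call was lost in DESeq2 (adjusted p = 0.0593). Importer and exporter mRNAs thus moved the same way. The ratio of SLC40A1 to TFRC counts was 0.0511 and 0.0518 under hairpins 2 and 3 and 0.0447 in the control. The 95% counting intervals under the hairpins (0.0477 to 0.0546 and 0.0483 to 0.0554) met that of the control (0.0410 to 0.0487) only at the edge. Such overlap does not show equal ratios, and the difference was not tested.

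Neither sensor passed the threshold. ACO1, iron regulatory protein 1, which is a cytosolic aconitase when it holds an iron-sulfur cluster, had 32.2 and 36.3 CPM under hairpins 2 and 3, against 40.1 CPM in the control (log2 fold change -0.23 ± 0.138, edgeR adjusted p = 0.389). IREB2, iron regulatory protein 2, which is degraded when iron is plentiful, had 177 and 189 CPM under hairpins 2 and 3, with the control between them at 183 CPM (-0.002 ± 0.132, edgeR adjusted p = 0.995). IREB2 counts were 5.50 times ACO1 counts under hairpin 2 (95% counting interval 5.24 to 5.78) and 5.21 times under hairpin 3 (4.98 to 5.45), against 4.58 times in the control (4.38 to 4.78). These values are of mRNA, while both proteins are known to be regulated mainly after translation.

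**Figure D3:**
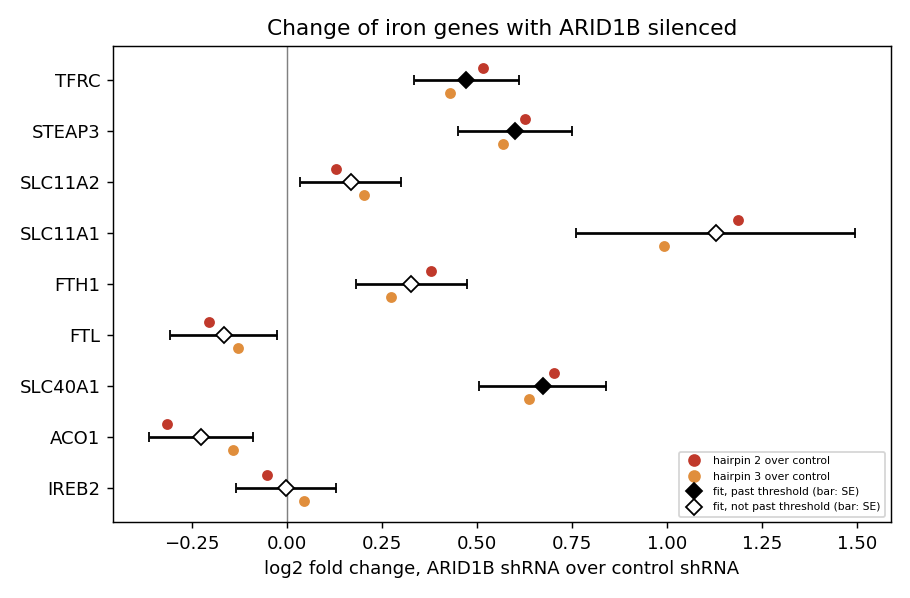
Log2 fold change of the 9 iron genes, ARID1B shRNA over control shRNA: diamonds give the fit with its SE (filled where the edgeR adjusted p was under 0.05), red and orange points the log2 CPM difference of hairpin 2 and of hairpin 3 from the control. The 3 filled diamonds are TFRC, STEAP3 and SLC40A1, and the points of the ARID1B hairpins lie on opposite sides of 0 only for IREB2.

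Divided by annotated exon length, the levels spanned more than 3 orders of magnitude. FTL led with 435 and 459 CPM per kilobase under hairpins 2 and 3 and 502 in the control, followed by FTH1 with 239, 222 and 184. TFRC had 36.5, 34.4 and 25.6 CPM per kilobase in the same order of libraries and IREB2 16.4, 17.5 and 17.0. Below them came STEAP3, ACO1, SLC11A2 and SLC40A1, between 2.08 and 5.31 CPM per kilobase in every library, and SLC11A1 was last with 0.178, 0.155 and 0.0761. STEAP3 was the fifth in that order under both ARID1B hairpins, at 5.21 and 5.01 CPM per kilobase, and the seventh in the control, at 3.37, behind ACO1 (5.31) and SLC11A2 (3.75). ACO1 lay above SLC11A2 in every library, but less far above it under hairpin 2 (4.26 against 4.10 CPM per kilobase) and hairpin 3 (4.81 against 4.32). The lengths are of all annotated exons, and for FTH1 the length includes the part shared with BEST1.

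The ARID1B hairpins gave like levels of the iron genes. Hairpin 2 over hairpin 3 ranged from 0.886 (ACO1) to 1.15 (SLC11A1) over the 9 genes. The counting interval of that ratio excluded 1 for TFRC, FTH1, FTL, ACO1 and IREB2, the last at 0.935 (0.911 to 0.960), and included it for SLC11A1, SLC11A2, SLC40A1 and STEAP3.

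Some markers of other cell types also differed between the ARID1B hairpins and the control. Of 9 macrophage markers, cells in which SLC40A1 and SLC11A1 are known to act, 8 had a row and their summed level was 27.7 and 26.2 CPM under hairpins 2 and 3, against 14.5 CPM in the control. CD68 made up most of it, with 25.5, 24.7 and 13.7 CPM, and rose with VSIG4 in the fit (2 of 5 tested). CD163 had 14, 4 and 0 counts and C1QB had 0 in every library. The 8 eosinophil and mast cell markers all rose, to a summed level of 2147 and 1130 CPM under hairpins 2 and 3, against 92.6 CPM in the control. In the same fit 8.7% of all genes were called, and the marker lists were chosen with earlier results of these data known. The 8 erythroid markers, of cells known for high TFRC, summed to 1.86 and 1.72 CPM under hairpins 2 and 3 and 1.63 CPM in the control, with HBA1 at 0 in every library. The part of these markers in the iron gene results was not tested, and in bulk RNA a change in the share of cells of a type and a change in RNA per cell cannot be told apart.

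The wider iron pathway was read from 7 lists of 78 genes, of which 65 were tested. Of these 4 were higher and 2 lower (9.23%), a share near the 8.7% of all genes, and their median log2 fold change was 0.02. No other uptake gene passed (0 of 7 tested in edgeR, 0 at an unadjusted p under 0.05): the metal transporters SLC39A14 and SLC39A8 had log2 fold changes of 0.18 ± 0.128 and -0.07 ± 0.128 and the ferric reductase CYBRD1 0.19 ± 0.151. TFR2, the second transferrin receptor, had -0.11 ± 0.176. STEAP1, STEAP2 and the ferritin receptor SCARA5 had 0 counts throughout. The limit that a count of 0 allows (3 counts) was 0.0499 and 0.0481 CPM under hairpins 2 and 3 and 0.0483 CPM in the control. No other storage or export gene passed either (0 of 5 in edgeR, 0 at an unadjusted p under 0.05). The iron chaperones PCBP1 and PCBP2 had -0.03 ± 0.137 and -0.05 ± 0.164, the ubiquitin ligase HERC2, which is known to turn over NCOA4, had -0.18 ± 0.131, and mitochondrial ferritin (FTMT) had 0 counts in every library.

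Among 8 further sensing and signalling genes 2 fell and 0 rose (unadjusted p under 0.05: 1 higher and 2 lower). The gene higher without adjustment was NDFIP1, an adaptor of ubiquitin ligases, at 0.45 on the log2 scale (edgeR adjusted p = 0.0668, and 0.0495 with the legacy fit). NEO1, neogenin, a receptor that binds hemojuvelin in the hepcidin pathway of liver and also acts in axon guidance, had 358 and 349 counts under hairpins 2 and 3, against 1424 in the control (log2 fold change -1.99 ± 0.161, edgeR adjusted p = 1.5e-06). ERFE, erythroferrone, a hormone of erythroblasts that lowers hepcidin, had 215 and 276 counts under hairpins 2 and 3, against 499 in the control (-1.0 ± 0.208, edgeR adjusted p = 0.0053). For both, each hairpin library was far below the control, and ERFE was lower under hairpin 2 than under hairpin 3 (0.808 times, 95% counting interval 0.673 to 0.969). Both genes passed in 7 of the 8 alternatives, the exception being the fit with no filter on low counts (adjusted p = 0.465 and 0.47). Hepcidin itself (HAMP) had 0, 1 and 0 counts and hemojuvelin (HJV) 0 in every library. FBXL5, the iron-sensing ligase that marks IREB2 for degradation, had 0.25 ± 0.129 (edgeR adjusted p = 0.283) and its partner SKP1 0.11 ± 0.128.

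**Figure D4:**
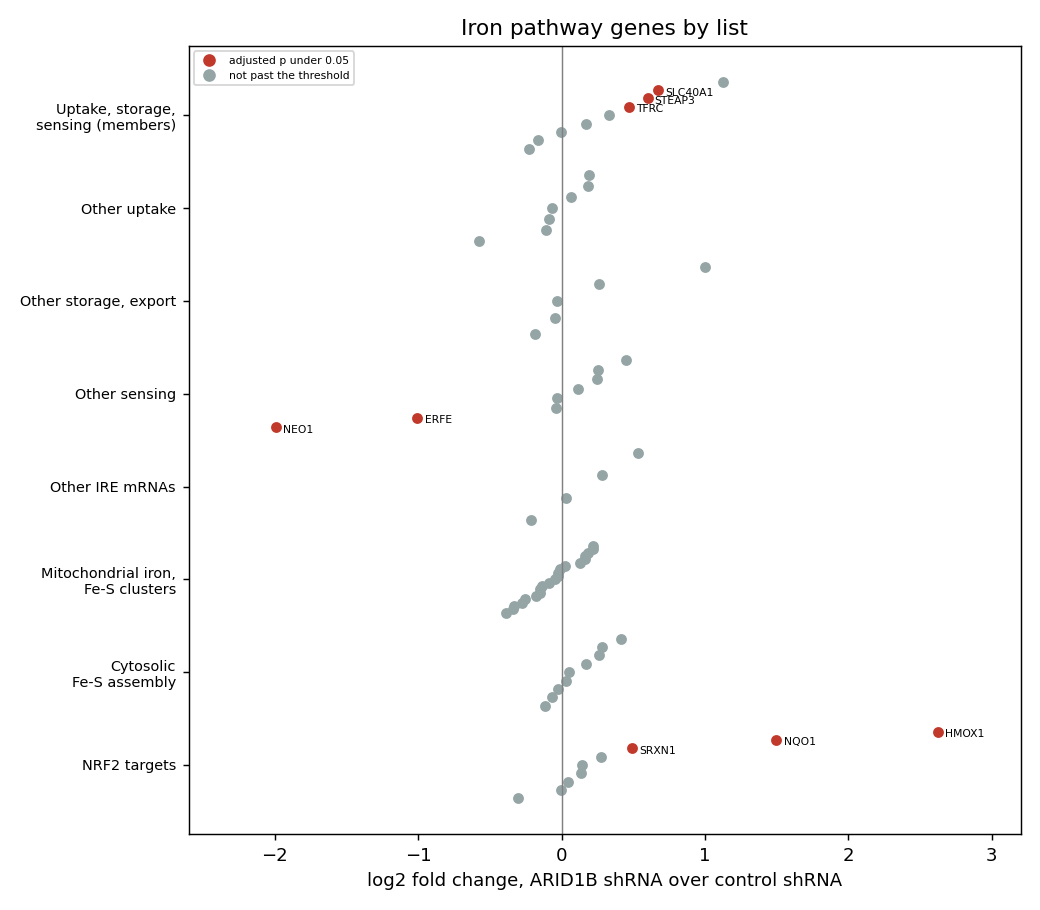
Log2 fold change, ARID1B shRNA over control shRNA, of tested genes in the iron gene set and in 7 other lists, with 1 row of points per list. Red points had an edgeR adjusted p under 0.05 and are named: TFRC, STEAP3, SLC40A1, NEO1, ERFE, HMOX1, NQO1 and SRXN1.

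No gene was called in the lists of mitochondrial iron import, iron-sulfur cluster assembly and other mRNAs reported to carry an iron-responsive element. Of 21 genes of mitochondrial iron import and iron-sulfur cluster assembly 0 passed in edgeR (unadjusted p under 0.05: 0 higher and 3 lower), with log2 fold changes from -0.39 (LYRM4) to 0.22 (CISD1). The mitochondrial iron importer SLC25A37 had 11049 and 9975 counts under hairpins 2 and 3 and 13503 in the control (-0.34 ± 0.136, edgeR adjusted p = 0.155), the chaperone HSPA9 0.02 ± 0.154 and the ferredoxin FDX2 -0.01 ± 0.129. Of 9 genes of cytosolic iron-sulfur assembly 0 passed in edgeR (unadjusted p under 0.05: 1 higher and 0 lower), among them MMS19 (-0.11 ± 0.137), CIAO1 (-0.07 ± 0.127) and CIAO2A (0.17 ± 0.131). Of 5 other mRNAs reported to carry an iron-responsive element 0 passed in edgeR (0 also without adjustment, at p under 0.05): the kinase CDC42BPA had 0.03 ± 0.151 and the phosphatase CDC14A 0.29 ± 0.168.

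The other rises came from the targets of NRF2, the transcription factor of the oxidative stress response that is also known to act on the ferritin genes and SLC40A1. Of 10 tested, 4 were called higher and 0 lower in edgeR (4 higher and 1 lower at an unadjusted p under 0.05), beside 8.7% of all genes called. Any part of NRF2 in the levels of the iron genes was not tested. HMOX1, heme oxygenase, which frees iron from heme, had 225 and 91 counts under hairpins 2 and 3, against 26 in the control (log2 fold change 2.62 ± 0.544, edgeR adjusted p = 0.00538). NQO1, a quinone reductase, had 2236 and 1443 counts under hairpins 2 and 3, against 663 in the control (1.50 ± 0.223, edgeR adjusted p = 0.000377). For both, both hairpin libraries exceeded the control and hairpin 2 stood well above hairpin 3: against the control, HMOX1 was 8.94 times as high under hairpin 2 alone and 3.49 times under hairpin 3 alone, and NQO1 3.48 and 2.17 times. SRXN1, a sulfiredoxin, rose by 0.49 ± 0.133 on the log2 scale (edgeR adjusted p = 0.0303). The glutamate-cysteine ligase genes GCLC (-0.30 ± 0.135) and GCLM (-0.01 ± 0.159), the cystine transporter SLC7A11 (0.14 ± 0.145) and the lipid peroxidase GPX4 (0.14 ± 0.128) did not pass. With robust empirical Bayes SRXN1 passed and HMOX1 and NQO1 did not (edgeR adjusted p = 0.29 and 0.113). When genes with a mean CPM under 1 were left out NQO1 passed, and HMOX1 and SRXN1 did not (edgeR adjusted p = 0.0601 and 0.06). SRXN1 also missed the threshold in DESeq2 (adjusted p = 0.0583), and all 3 missed it with no filter on low counts (edgeR adjusted p = 0.47).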

How the data were processed

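The authors deposited whole-number read counts per Ensembl gene ID, not normalized. STAR, Cufflinks and featureCounts and the build hg19 are named without versions or roles, per the submitters' processing notes; for the annotation and the use of strand, nothing is given in the sources used here. GENCODE 29 (GRCh38) named 52338 of the 57773 IDs and served for names, exon length, exon overlap and UTR sequences, and its coordinates were not joined to the counts. The fit used edgeR 4.0.16 (R 4.3.3): filterByExpr by group with a minimum count of 10, TMM factors, estimateDisp, glmQLFit with legacy = FALSE and glmQLFTest, two-sided, with Benjamini-Hochberg adjustment over 20382 genes and a threshold of 0.05. The fit had 1 residual degree of freedom, from the ARID1B hairpins, beside a median of 14.8 prior degrees of freedom borrowed from all genes. Standard errors are the log2 fold change over the square root of F. Single hairpins were compared by log2 CPM (prior count 2), and ratios have exact 95% counting intervals. DESeq2 1.42.0 was an alternative, run on the same genes. Some list members are counted but not reported here by name, and are not plotted. The iron genes, the 7 other lists and the marker lists were chosen with earlier results of these data known. Named were ARID1B, all members, every called gene of a list (at most 6) and then its genes of highest mean CPM up to 3; PRTN3, CTSG, NDFIP1, TFR2, FBXL5, LYRM4, CISD1, GCLC, GCLM, SLC7A11, GPX4, BEST1, STEAP3-AS1 and the genes at or near 0 were added after their values were seen.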

Additional observations from a re-analysis of the deposited data

How the results depend on the processing

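No paired analysis was possible because there was 1 control library and the labels pair no libraries. With no filter on low counts edgeR called 0 genes higher and 0 lower (1715 and 1503 at an unadjusted p under 0.05), with 0 iron genes called (5 higher and 0 lower unadjusted) and 0 higher and 0 lower in the other lists (3 and 3 unadjusted); with the legacy fit added, a setting chosen after seeing the data, it called 218 and 109 genes, 0 iron genes and 0 higher and 1 lower in the other lists. With a mean CPM of at least 1 it called 622 and 338 genes, 0 iron genes and 1 higher in the other lists. DESeq2 called 277 genes lower, and 73.7% of its calls were higher, against 63.1% in the main fit and 53.8% with upper quartile factors. Robust empirical Bayes left 1 higher gene in the other lists. IREB2 changed sign with RLE factors and with DESeq2 (0.0125 in each), at a size far below its standard error. Without hairpin 2 or without hairpin 3 the log2 fold changes of TFRC, STEAP3 and SLC40A1 were 0.43 and 0.52, 0.57 and 0.63, and 0.64 and 0.70, with no test. The cause of these differences was not tested. A single control library limits every comparison.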
